A study of Homo sapiens with 6 samples.

Results

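The unfolded protein response and the integrated stress response are represented here by 10 genes, ATF4, DDIT3, ASNS, CHAC1, TRIB3, SESN2, HSPA5, HSP90B1, XBP1 and HERPUD1, chosen by name from the 34957 genes with an identifier in the deposited tables. No measured value was a criterion of the choice, but earlier results of these data were known when it was made. All 10 genes were found in both tables, with 68 annotated transcripts. The transcriptome was sequenced in A549 cells, an established line from a human lung adenocarcinoma, 48 h after transfection with a negative control siRNA (si-ctrl) or with either of a pair of siRNAs against the long noncoding RNA PLANE (si-PLANE.1 and si-PLANE.2). Each group held 2 libraries, numbered 1 and 2 in the labels for si-ctrl and si-PLANE.1 and numbered 3 and 4 for si-PLANE.2. The labels do not say whether the libraries came from separate cultures, so p-values measure only the spread between these libraries, which may be technical. All groups shared the cell line, the time point and the transfection, and no untransfected cells were analysed here. PLANE itself was not analysed here, so its knockdown was not checked.

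On GRCh37 the genes of the integrated stress response were ATF4 at chr22:39915700-39918688 (plus strand), DDIT3 at chr12:57910371-57915520 (minus strand), ASNS at chr7:97480989-97501854 (minus strand), CHAC1 at chr15:41245160-41248710 (plus strand), TRIB3 at chr20:343479-378203 (plus strand) and SESN2 at chr1:28586029-28609002 (plus strand). Those of the ER branch were HSPA5 at chr9:127997132-128003661 (minus strand), HSP90B1 at chr12:104323885-104347709 (plus strand), XBP1 at chr22:29190543-29196585 (minus strand) and HERPUD1 at chr16:56966054-56978776 (plus strand).

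The unfolded protein response is started when unfolded proteins accumulate in the lumen of the endoplasmic reticulum (ER). The sensors IRE1, PERK and ATF6 then raise ER chaperones, degradation of misfolded proteins and, through PERK, phosphorylation of the translation factor eIF2. The same phosphorylation is made by the kinases GCN2, HRI and PKR on amino acid shortage, haem shortage or mitochondrial stress and double-stranded RNA, and this shared branch is the integrated stress response, in which the transcription factor ATF4 is translated and induces genes of amino acid supply and of cell death. Secretory and lung epithelial cells rely on the ER branch for protein folding, and tumour cells use the ATF4 branch when amino acids are scarce.

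The libraries held between 10572151 and 20778431 expected counts, which are estimates of the reads from each transcript and need not be whole numbers. Gene values are sums over the transcripts of a gene, given as FPKM (fragments per kilobase of transcript, scaled to library size, as the authors deposited them) or tested as rounded expected counts. The cell line was checked against its markers. Of 12 A549 markers, 11 were at 1 FPKM or more in every library, with a summed level of 12504 to 28991 FPKM, and the remaining marker, KRT19, was between 0.76 and 5.38 FPKM. The 9 leukocyte markers summed to 7.56 to 12.2 FPKM, with CD3E at 0 in every library and PTPRC at no more than 0.02 FPKM. The 8 fibroblast and endothelial markers in the tables summed to 18.7 to 29.9 FPKM. The libraries of si-PLANE.2 differed from the other 4 in 12 histone genes whose mRNAs lack a poly(A) tail, which summed to 2350 to 4280 FPKM with si-ctrl and si-PLANE.1 and to 105 and 118 FPKM with si-PLANE.2. Either poly(A) isolation or rRNA removal was used according to the study's methods, which tie neither to a library, so in every comparison with si-PLANE.2 the siRNA and the way the library was made cannot be told apart.

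XBP1 is the substrate of IRE1, which cuts a stretch of 26 bases out of its mRNA in the cytoplasm, so that the spliced mRNA encodes an active transcription factor. The stretch lies at chr22:29192116-29192141 on the minus strand of GRCh37, within an exon of XBP1-201 (transcript positions 566 to 591), and it is a gap between exons in the annotation of XBP1-202. It is given here in capitals between 30 bases on either side, because the XBP1 isoforms are told apart by it. The bases at its 2 ends repeat, so 7 placements of the cut give the same spliced sequence, and the placement shown is that of the annotation.
XBP1-201, IRE1 stretch: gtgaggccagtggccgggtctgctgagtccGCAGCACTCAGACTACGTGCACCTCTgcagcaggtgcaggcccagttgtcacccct

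A pair of retained-intron transcripts carried the clearest isoform difference of the group, and their ends are shown for that reason, with 40 bases of exon in lower case followed by the bases that lie in an intron of the main coding isoform in capitals. XBP1-205 ends within the intron after the second exon of XBP1-201, at chr22:29194894-29195044 on the minus strand of GRCh37, with 151 intronic bases. HSP90B1-208 ends within an intron of HSP90B1-201, at chr12:104337098-104337245 on the plus strand of GRCh37, with 148 intronic bases. Both run from the exon into a GT donor site without a junction.
XBP1-205, 3′ end: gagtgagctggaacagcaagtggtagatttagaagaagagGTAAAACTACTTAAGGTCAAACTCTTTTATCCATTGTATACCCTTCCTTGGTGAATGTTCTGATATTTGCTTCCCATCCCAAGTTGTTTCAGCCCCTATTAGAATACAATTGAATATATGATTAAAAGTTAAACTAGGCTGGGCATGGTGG
HSP90B1-208, 3′ end: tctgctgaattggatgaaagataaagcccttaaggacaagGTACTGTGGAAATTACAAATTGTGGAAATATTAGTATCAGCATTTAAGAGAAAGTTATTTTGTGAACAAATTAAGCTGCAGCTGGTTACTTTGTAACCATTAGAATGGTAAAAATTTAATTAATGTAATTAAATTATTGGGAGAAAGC

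The promoters of the ER branch are shown because HSPA5, XBP1 and HERPUD1 were called together in 2 of the comparisons below. Those comparisons share the si-ctrl libraries, of which replicate 2 was the lower for each of these genes, so they are not independent. RefSeq windows on GRCh38.p14 from 250 bases before to 50 bases after the start were found for all 10 genes, 16 windows in all. Both strands were searched for the ER stress response element ERSE (CCAAT, 9 bases, CCACG), for ERSE-II (ATTGG, 1 base, CCACG), for the CARE element of ATF4 targets (TGATGNAA) and for the UPRE element of XBP1 (TGACGTGN). ERSE was found in 0.0769% of 35116 windows, among them those of HSPA5 (66 bases before the start), XBP1 (52 bases before) and HSP90B1 (194 and 89 bases before, the latter on the reverse strand). ERSE-II was found in 0.0541% of windows, among them that of HERPUD1 (117 bases before). CARE was found in 3.62% of windows, among them those of ASNS (68 bases before), CHAC1 (209 bases before) and HERPUD1 (176 bases before), the last 2 on the reverse strand. UPRE was found in 1.96% of windows and in none of the 16, which says only that these letters are not in these windows. A match is a description of letters and not evidence of binding. Matches of ERSE, ERSE-II and CARE are in capitals below, and none of them overlap.
HSPA5, chr9:125241294-125241593, minus strand: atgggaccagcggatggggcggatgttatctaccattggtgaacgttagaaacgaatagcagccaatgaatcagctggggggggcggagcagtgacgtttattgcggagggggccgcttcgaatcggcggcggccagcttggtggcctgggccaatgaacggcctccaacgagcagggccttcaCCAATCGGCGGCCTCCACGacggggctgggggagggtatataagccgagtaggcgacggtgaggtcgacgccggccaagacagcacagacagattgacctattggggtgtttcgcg
XBP1, chr22:28800520-28800819, minus strand: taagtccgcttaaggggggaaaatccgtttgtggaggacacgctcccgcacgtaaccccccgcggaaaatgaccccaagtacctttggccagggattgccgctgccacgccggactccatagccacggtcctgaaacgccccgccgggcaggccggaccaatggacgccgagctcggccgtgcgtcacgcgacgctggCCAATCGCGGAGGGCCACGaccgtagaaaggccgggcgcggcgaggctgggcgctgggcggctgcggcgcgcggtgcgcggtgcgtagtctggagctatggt
HSP90B1, chr12:103930160-103930459, plus strand: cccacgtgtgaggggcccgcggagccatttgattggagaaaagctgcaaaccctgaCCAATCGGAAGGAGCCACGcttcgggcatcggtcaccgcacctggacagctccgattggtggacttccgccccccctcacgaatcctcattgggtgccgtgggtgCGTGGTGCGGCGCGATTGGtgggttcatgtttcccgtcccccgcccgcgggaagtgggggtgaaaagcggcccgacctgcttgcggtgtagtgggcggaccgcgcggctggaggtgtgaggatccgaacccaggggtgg
HERPUD1, chr16:56931892-56932191, plus strand: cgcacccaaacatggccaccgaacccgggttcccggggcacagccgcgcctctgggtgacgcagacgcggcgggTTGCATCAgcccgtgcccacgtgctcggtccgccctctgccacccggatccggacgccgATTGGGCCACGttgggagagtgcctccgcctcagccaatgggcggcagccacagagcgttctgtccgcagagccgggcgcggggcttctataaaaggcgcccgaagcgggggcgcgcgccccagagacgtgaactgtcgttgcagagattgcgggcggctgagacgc

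All 10 genes were expressed at more than 1 FPKM in every library. By mean FPKM over the 6 libraries the order was HSP90B1 at 407, ATF4 at 198, HSPA5 at 147, XBP1 at 119, HERPUD1 at 34.9, TRIB3 at 29.7, ASNS at 28.5, DDIT3 at 10.8, SESN2 at 3.52 and CHAC1 at 2.30. The most abundant members were the 2 ER chaperones and the 2 transcription factors ATF4 and XBP1, and even CHAC1 had a higher mean than 66.2% of all genes. Within si-ctrl the order was nearly the same, and neighbours whose libraries overlapped were HSPA5 and XBP1, HERPUD1 and ASNS, and SESN2 and CHAC1. In the si-PLANE.2 libraries HSPA5 and XBP1 stood above ATF4, and TRIB3 stood above HERPUD1 and ASNS, whereas in the other 4 libraries ATF4 was second to HSP90B1. The ratio of the highest to the lowest library was widest for TRIB3 (3.66) and CHAC1 (3.01) and narrowest for ASNS (1.15) and HSP90B1 (1.31).

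**Figure D1:**
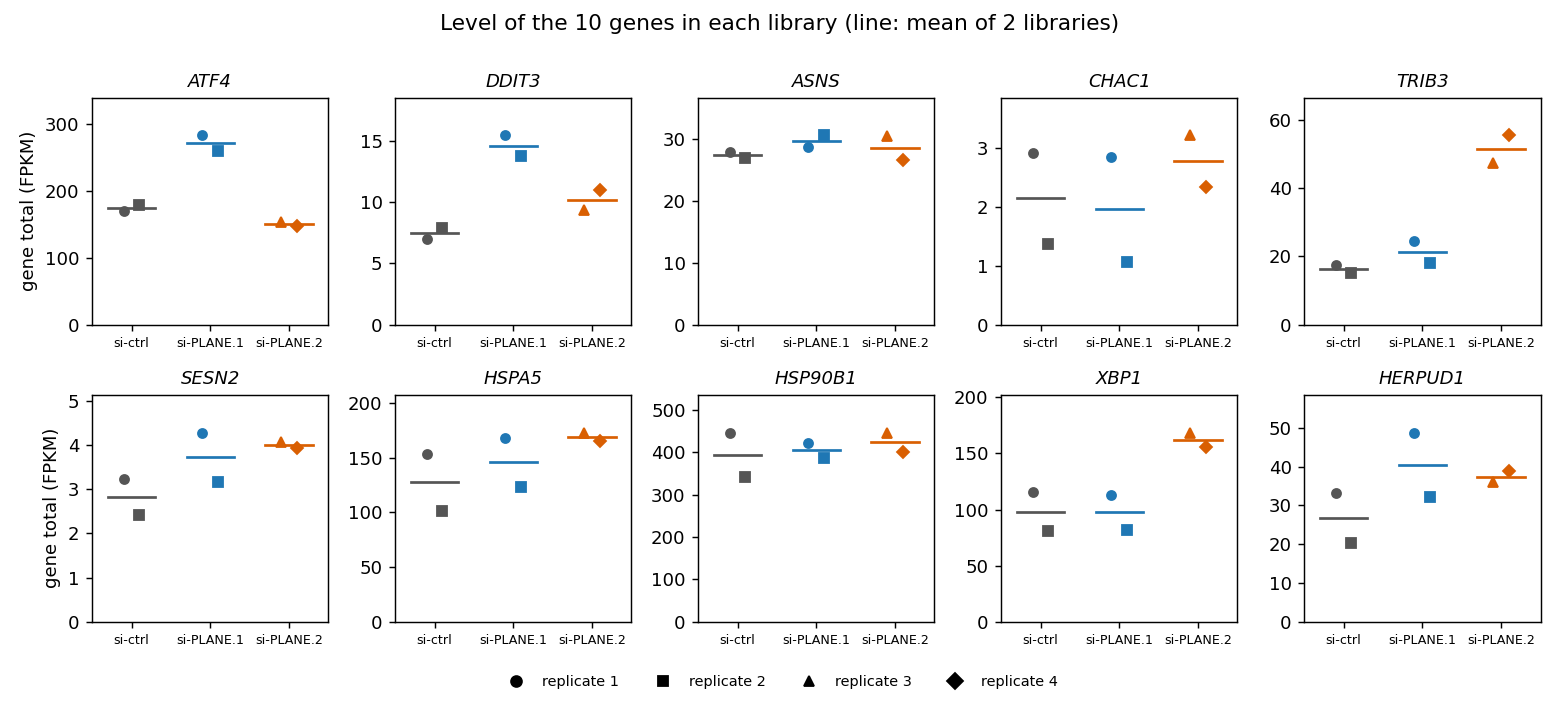
Gene totals in FPKM (vertical axis, from 0, with its own scale for each gene) of the 10 genes in the 2 libraries of si-ctrl, si-PLANE.1 and si-PLANE.2, with marker shapes for replicate numbers and lines for group means. ATF4 and DDIT3 were highest in the si-PLANE.1 libraries, TRIB3 and XBP1 were highest in the si-PLANE.2 libraries, and replicate 2 lay below replicate 1 for HSPA5, XBP1 and HERPUD1.

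The question of the first comparison was whether the genes of these pathways differed after transfection with si-PLANE.1. By the quasi-likelihood test of edgeR none of the 10 genes had an adjusted p under 0.05, against 5 of all 14535 genes tested (0.0344%). At an unadjusted p under 0.05 there were 2, ATF4 and DDIT3, both with higher values, against 10.4% of all genes. DESeq2 called ATF4 alone of the 10, and limma on log2(FPKM + 1) called none. The FPKM values of the groups did not overlap for 4 of the 10, against 41.1% of all genes tested in either direction.

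ATF4, the transcription factor that carries the integrated stress response, had 169 and 179 FPKM with si-ctrl against 282 and 259 FPKM with si-PLANE.1. The difference was 1.45-fold in the count test (log2 fold change 0.53, SE 0.13, adjusted p = 0.298 by edgeR). Each si-PLANE.1 library was above each si-ctrl library, and the spread within groups was small beside the distance between them. The difference lay in ATF4-202, which held nearly all of the gene's FPKM and went from 162 and 172 FPKM to 275 and 252 FPKM, while ATF4-201 stayed between 6.54 and 7.26 FPKM in these 4 libraries. DDIT3, which encodes the proapoptotic factor CHOP induced by ATF4, had 7.01 and 7.94 FPKM with si-ctrl against 15.5 and 13.8 FPKM with si-PLANE.1. Its difference was 1.79-fold (log2 fold change 0.84, SE 0.23, adjusted p = 0.341 by edgeR) and rested on 64 to 112 expected counts per library. DDIT3 overlaps MARS1 and MBD6 on the other strand of the annotation, and whether the counting used strand is not given in the sources used here, so reads from the overlaps are uncertain.

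None of the members that ATF4 is known to induce passed the test for si-PLANE.1. TRIB3, a pseudokinase that restrains AKT, had 17.5 and 15.1 FPKM with si-ctrl against 24.5 and 18.2 FPKM with si-PLANE.1 (log2 fold change 0.33, SE 0.18, adjusted p = 0.561). SESN2, a leucine sensor upstream of mTORC1, had 3.23 and 2.41 FPKM and then 4.28 and 3.16 FPKM, so its groups overlapped. CHAC1, which degrades glutathione, had 2.93 and 1.37 FPKM and then 2.85 and 1.07 FPKM, so replicate 2 was low in both groups. ASNS, asparagine synthetase, had 28.0 and 26.9 FPKM and then 28.7 and 30.6 FPKM, a higher level on this scale. In the count test its log2 fold change had the opposite sign, -0.10 with an SE of 0.15 (adjusted p = 0.849 by edgeR), so no direction can be given for ASNS.

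The ER chaperones and XBP1 overlapped between si-ctrl and si-PLANE.1. HSPA5, the ER chaperone BiP that also keeps the sensors inactive, had 153 and 101 FPKM with si-ctrl against 168 and 123 FPKM with si-PLANE.1 (log2 fold change 0.10, SE 0.22). HSP90B1, the ER member of the HSP90 family, had 446 and 342 FPKM and then 422 and 386 FPKM (log2 fold change -0.063, SE 0.18). XBP1 had 116 and 80.5 FPKM and then 113 and 82.0 FPKM (log2 fold change -0.10, SE 0.21). Replicate 2 was the lower library in both groups for all 3. HERPUD1, an ER membrane protein of the degradation machinery, had 33.2 and 20.2 FPKM and then 48.7 and 32.3 FPKM, with a higher value in each numbered replicate but overlapping groups (log2 fold change 0.41, SE 0.20, adjusted p = 0.542).

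**Figure D2:**
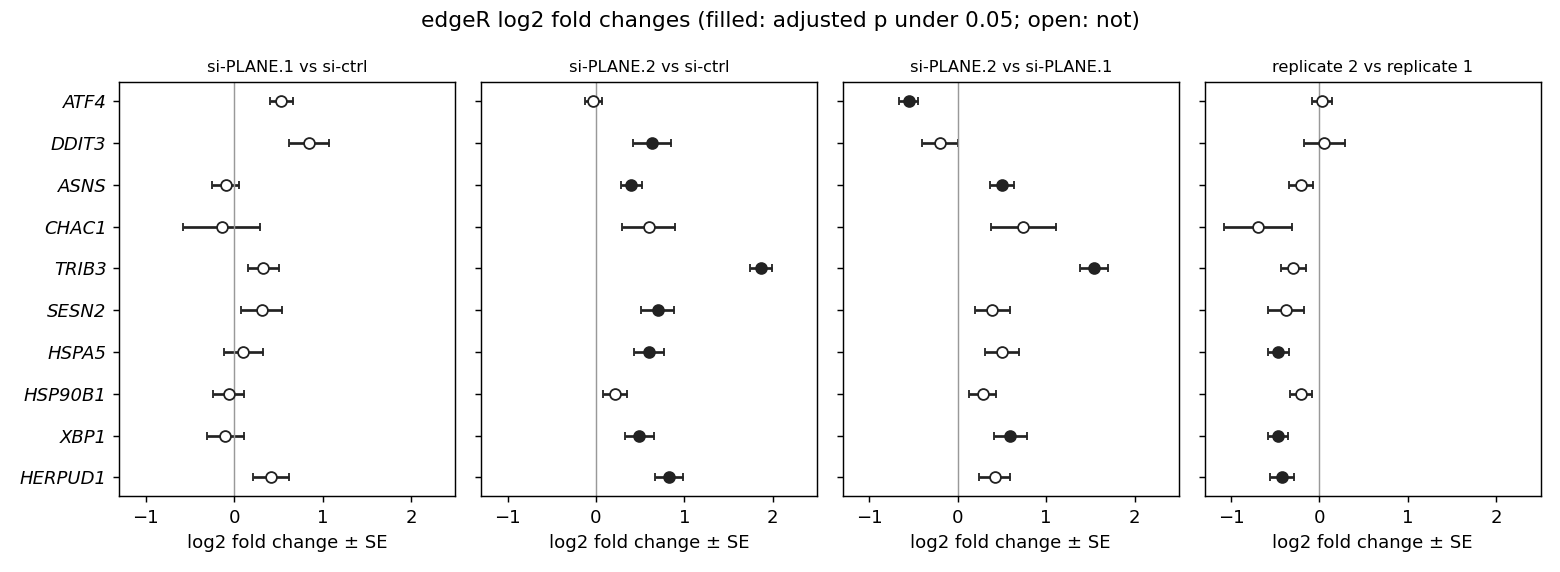
Log2 fold changes (horizontal axis, points) with their standard errors (bars) of the 10 genes in the 4 comparisons, from edgeR on expected counts, with filled points for adjusted p under 0.05. No point is filled for si-PLANE.1 against si-ctrl, 7 are filled for si-PLANE.2 against si-ctrl, 4 for si-PLANE.2 against si-PLANE.1 and 3 for replicate 2 against replicate 1.

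In the si-PLANE.2 libraries 7 of the 10 genes rose against si-ctrl and none fell (edgeR, adjusted p under 0.05), against 64.1% of all 14168 genes tested called in either direction and 31.8% called higher. The 7 were TRIB3, HERPUD1, SESN2, DDIT3, HSPA5, XBP1 and ASNS, the last of which was called on counts but changed sign with TPM. The call held in all 14 alternatives for TRIB3. It was lost in 3 of them for HERPUD1, 6 each for SESN2, HSPA5 and XBP1, 7 for ASNS and 9 for DDIT3. FPKM values did not overlap between the groups for 7 of the 10, against 80.6% of all genes. These 7 included ATF4, which was lower and was not called, and did not include ASNS. With 64.1% of all genes called, a called gene was the common case in this comparison. Of all called genes 49.7% were higher on counts, against 36% with limma on log2(FPKM + 1) and 27.3% with limma on log2(TPM + 1). In bulk RNA, fewer cells of a type and less RNA per cell cannot be told apart. The median log2 fold change of the 10 genes was 0.60 and that of all genes was -0.027, while 15 reference genes had a median of 0.77 and 12 A549 markers a median of 0.76. Leaving out si-PLANE.2 replicate 3 or replicate 4 left 2 of the 10 called in each case, TRIB3 and HERPUD1, although with 1 library in that group the spread is borrowed from si-ctrl. Leaving out si-ctrl replicate 1 or 2 left 8 and 7.

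TRIB3 had the largest change of the 10. It went from 17.5 and 15.1 FPKM with si-ctrl to 47.4 and 55.4 FPKM with si-PLANE.2, a 3.65-fold rise (log2 fold change 1.87, SE 0.13, adjusted p = 2.29e-05 by edgeR). No library of the other groups reached the lower of the si-PLANE.2 libraries, and the call held in all 14 alternatives. The rise was in TRIB3-201, the main coding isoform (16.4 and 13.6 FPKM to 44.2 and 53.0 FPKM, adjusted p = 0.00809 over transcripts).

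The other genes of the ATF4 branch moved less. SESN2 rose from 3.23 and 2.41 FPKM to 4.08 and 3.94 FPKM (log2 fold change 0.70, SE 0.18, adjusted p = 0.0115). DDIT3 rose from 7.01 and 7.94 FPKM to 9.40 and 11.03 FPKM (log2 fold change 0.63, SE 0.22, adjusted p = 0.0339), a call lost in 9 of 14 alternatives, DESeq2 among them. CHAC1 had 2.93 and 1.37 FPKM and then 3.22 and 2.34 FPKM, and did not pass (log2 fold change 0.60, SE 0.30, adjusted p = 0.113). CHAC1 rested on 18 to 75 expected counts per library, the fewest of the 10. For ASNS the 2 units differed, since its FPKM values of 28.0 and 26.9 in si-ctrl and 30.5 and 26.5 in si-PLANE.2 overlapped, while its TMM-scaled counts (CPM, counts scaled to library size) were 43.8 and 37.8 and then 57.4 and 51.0. Its log2 fold change on counts was 0.40 (SE 0.12, adjusted p = 0.0207), against 0.051 with limma on log2(FPKM + 1) and -0.10 with limma on log2(TPM + 1). The median of all genes was -0.37 on the log2(TPM + 1) scale in this comparison, against -0.027 on counts, and relative to the TPM median ASNS was 0.27 higher. ATF4 did not pass, with 169 and 179 FPKM with si-ctrl against 153 and 146 FPKM with si-PLANE.2 (log2 fold change -0.028 on counts, SE 0.10, adjusted p = 0.815). On the FPKM scale both si-PLANE.2 libraries lay below both si-ctrl libraries.

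Of the ER branch, HERPUD1 rose from 33.2 and 20.2 FPKM to 35.9 and 38.9 FPKM (log2 fold change 0.83, SE 0.16, adjusted p = 0.00253). Its main coding isoform HERPUD1-204 rose from 18.4 and 14.2 FPKM to 29.98 and 29.65 FPKM (adjusted p = 0.0195). HSPA5 rose from 153 and 101 FPKM to 173 and 166 FPKM (log2 fold change 0.60, SE 0.17, adjusted p = 0.0174). HSP90B1 had 446 and 342 FPKM and then 446 and 402 FPKM, and did not pass (log2 fold change 0.21, SE 0.14, adjusted p = 0.208). For HSPA5, HSP90B1 and HERPUD1 the si-PLANE.2 libraries were nearer to replicate 1 of si-ctrl than to replicate 2, whose values were the lower ones. With limma on log2(FPKM + 1), TRIB3 and XBP1 alone of the 10 were called.

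XBP1 rose from 116 and 80.5 FPKM to 169 and 156 FPKM as a gene total (log2 fold change 0.49, SE 0.17, adjusted p = 0.0323), and the retained-intron transcript XBP1-205 shown above held much of the difference in FPKM. XBP1-205 was at 1.09 and 0.38 FPKM with si-ctrl, at 0.47 and 1.45 FPKM with si-PLANE.1 and at 53.2 and 55.5 FPKM with si-PLANE.2. It held 0.942% and 0.472% of the gene's FPKM with si-ctrl against 31.6% and 35.7% in si-PLANE.2. Its length is 520 bases, so its share of reads was smaller. In si-PLANE.2 it held 318 and 289.7 of the 4090 and 3214 expected counts of the gene. The difference passed the test over all transcripts (adjusted p = 0.0100 by edgeR), and no fold is given because the si-ctrl libraries held 4.01 and 1.44 expected counts, against 318 and 289.7. When only protein-coding transcripts were summed, the log2 fold change of XBP1 was 0.32 and no longer passed (adjusted p = 0.144, against a range of 1.55e-13 to 0.171 over its 14 alternatives).

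The IRE1 stretch was used to split the coding isoforms of XBP1. XBP1-202 lacks it, and XBP1-201, XBP1-203 and XBP1-204 contain it. Isoforms without the stretch held 8.62% and 14.3% of coding XBP1 FPKM with si-ctrl, 9.06% and 11.2% in si-PLANE.1 and 7.22% and 3.29% in si-PLANE.2. The spliced form was thus the minor form in every library, and its share was lowest in the si-PLANE.2 libraries. XBP1-202 itself was at 9.30 and 10.9 FPKM with si-ctrl, 9.69 and 8.53 FPKM with si-PLANE.1 against 8.13 and 3.21 FPKM with si-PLANE.2, a difference from si-ctrl that did not pass for si-PLANE.2 (log2 fold change -0.52, SE 0.55, adjusted p = 0.509). The shares are estimates, since the isoforms share most of their length and the deposited table gives XBP1-202 a length of 1131 bases, against 1791 in the annotation used for the sequence.

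HSP90B1 showed the same kind of isoform difference, although its gene total did not pass the test. The transcripts named in this paragraph, other than HSP90B1-201, were chosen after their values were seen, because each held under 10% of the gene's FPKM. HSP90B1-208 rose from 2.31 and 1.58 FPKM with si-ctrl to 39.6 and 37.1 FPKM with si-PLANE.2 (log2 fold change 4.61, SE 0.32, adjusted p = 0.00713), with 4.41 and 4.16 FPKM with si-PLANE.1. A different retained-intron transcript of the gene, HSP90B1-204, fell from 9.21 and 10.8 FPKM to 0.85 and 0.71 FPKM (log2 fold change -3.32, SE 0.46, adjusted p = 0.0176). HSP90B1-203, also with a retained intron, fell from 2.53 and 1.09 FPKM to 0.21 and 0.12 FPKM (adjusted p = 0.0431). The coding isoform HSP90B1-201 remained between 314 and 407 FPKM in all libraries. Retained-intron transcripts of 1 gene therefore went in opposite directions in the same libraries.

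Over all member transcripts, 42 of 68 were tested for si-PLANE.1 and none passed by edgeR, as was the case for 0% of all 57625 transcripts. At an unadjusted p under 0.05 there were 4, against 4.43% of all transcripts, and DESeq2 called 1. For si-PLANE.2, 37 were tested and 7 passed, 5 higher and 2 lower, against 25.6% of 56791 transcripts. Besides those named, DDIT3-202, a coding isoform at 0 in both si-ctrl libraries, held 24 and 14 expected counts in si-PLANE.2, at least 4.48-fold higher than a floor of 3 counts in each si-ctrl library (adjusted p = 0.0434). It was also found with si-PLANE.1, at 4.64 and 17.29 expected counts, a difference from si-ctrl that did not pass (adjusted p = 0.999 by edgeR).

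**Figure D3:**
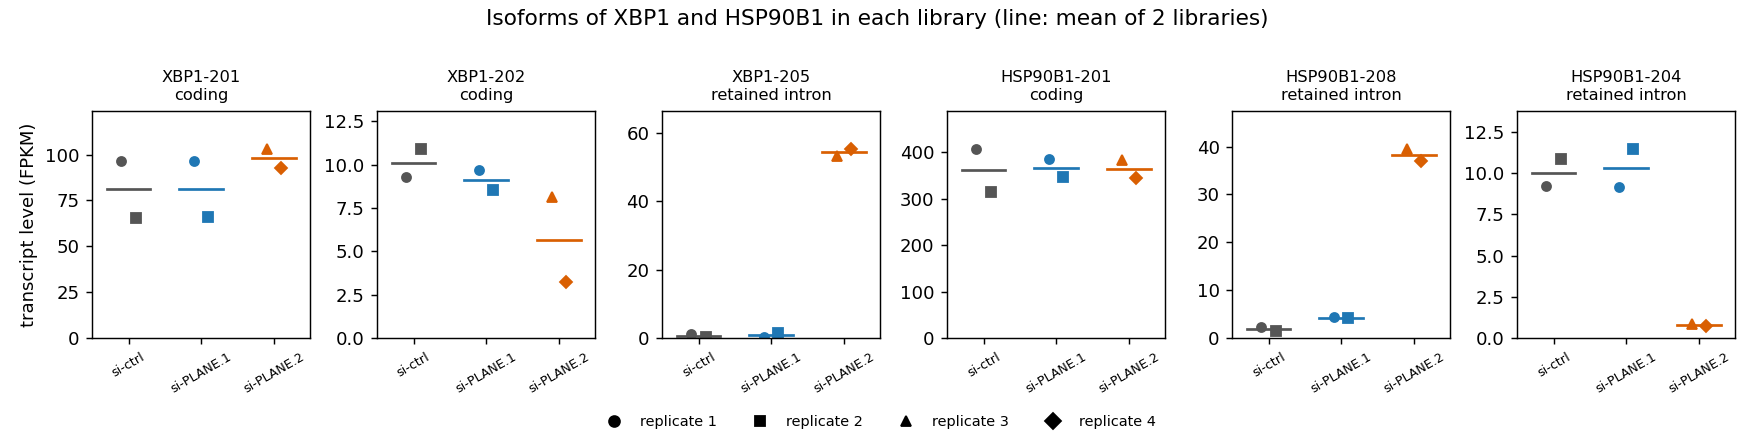
Levels in FPKM (vertical axes, from 0, with their own scales) of 3 isoforms each of XBP1 and HSP90B1 in the libraries of the 3 groups, with marker shapes for replicate numbers and lines for group means. XBP1-205 and HSP90B1-208 were high in the si-PLANE.2 libraries, at 53.2 and 55.5 FPKM and at 39.6 and 37.1 FPKM, while HSP90B1-204 was low in those libraries and the main coding isoforms overlapped between groups.

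The difference between the siRNAs was tested directly in a fit of all 6 libraries. Of the 10 genes 4 were called, against 64.4% of 14440 genes, with TRIB3, XBP1 and ASNS higher and ATF4 lower in si-PLANE.2 than in si-PLANE.1. TRIB3 was 2.91-fold higher (log2 difference 1.54, SE 0.15, adjusted p = 4.41e-05) and ATF4 was lower by a log2 difference of -0.55 (SE 0.11, adjusted p = 0.00171). Both calls held in all 16 alternatives. ATF4 and its target TRIB3 thus differed between the siRNAs in opposite directions. XBP1 differed by 0.60 (SE 0.19, adjusted p = 0.0229) and ASNS by 0.50 (SE 0.13, adjusted p = 0.00942), and the ASNS difference had the opposite sign with limma on log2(FPKM + 1), -0.056. DDIT3 did not pass in this test (log2 difference -0.20, SE 0.20, adjusted p = 0.405) and was called lower in si-PLANE.2 by limma on FPKM or TPM, 3 of its 16 alternatives. HSPA5 (0.50, SE 0.20, adjusted p = 0.0506) and HERPUD1 (0.42, SE 0.17, adjusted p = 0.062) were near the threshold and were called in 7 and 8 of 16 alternatives. Without si-PLANE.1 replicate 1 there were 7 calls, without si-PLANE.1 replicate 2 or si-PLANE.2 replicate 3 there were 2, and without either si-ctrl library there were 6.

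Replicate 2 was compared with replicate 1 over si-ctrl and si-PLANE.1, with the siRNA as a term. The labels do not say what a replicate number marks. The fit treats same-numbered libraries as pairs, of which there are 2, and its p-values rest on that pairing, which is not established. Of the 10 genes 3 were called, all lower in replicate 2, against 5.59% of all 14535 genes called and 2.92% called lower. The 3 were the ER branch genes HSPA5, XBP1 and HERPUD1, which also had higher values in si-PLANE.2 than in the same si-ctrl libraries. HSPA5 went from 153 to 101 FPKM within si-ctrl and from 168 to 123 FPKM within si-PLANE.1 (log2 fold change -0.47, SE 0.12, adjusted p = 0.00324 by edgeR). XBP1 went from 116 to 80.5 FPKM and from 113 to 82.0 FPKM (log2 fold change -0.47, SE 0.11, adjusted p = 0.00136). The fall of XBP1 was nearly equal in the 2 groups and lay in the unspliced coding isoform XBP1-201 (96.7 to 65.4 FPKM and 96.3 to 65.9 FPKM). HERPUD1 went from 33.2 to 20.2 FPKM and from 48.7 to 32.3 FPKM (log2 fold change -0.43, SE 0.14, adjusted p = 0.0338). The 3 calls were not made by limma on log2(FPKM + 1), which called 4 genes in all, nor without the siRNA as a term, and DESeq2 made 2 of them.

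The ratio of replicate 2 to replicate 1 in TMM-scaled CPM was below 1 in both groups for ASNS, CHAC1, TRIB3, SESN2 and HSP90B1 as well, and none of these passed the test. CHAC1 had the lowest log2 ratios, -0.49 in si-ctrl and -0.95 in si-PLANE.1, on few counts. ATF4 and DDIT3 had ratios on either side of 1 (log2 0.12 and -0.065 for ATF4, 0.23 and -0.094 for DDIT3). Within si-PLANE.2 the log2 ratios of replicate 4 to replicate 3 were smaller for the ER branch, at -0.066 for HSPA5, -0.17 for XBP1 and -0.0091 for HERPUD1.

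Interferon-stimulated genes moved with the replicate number. All 15 of that list were lower in replicate 2 (adjusted p under 0.05), with a median log2 fold change of -4.79, and their summed level was 1310 and 1876 FPKM in replicate 1 of si-ctrl and si-PLANE.1 and 178 and 181 FPKM in replicate 2. In the si-PLANE.2 libraries the sum was 361 and 302 FPKM. Their part in the difference of HSPA5, XBP1 and HERPUD1 was not tested. EIF2AK2, the double-stranded RNA sensor PKR that phosphorylates eIF2 and is itself induced by interferon, was at 169 and 203 FPKM in replicate 1, at 54.3 and 65.2 FPKM in replicate 2 and at 22.0 and 22.2 FPKM with si-PLANE.2.

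**Figure D4:**
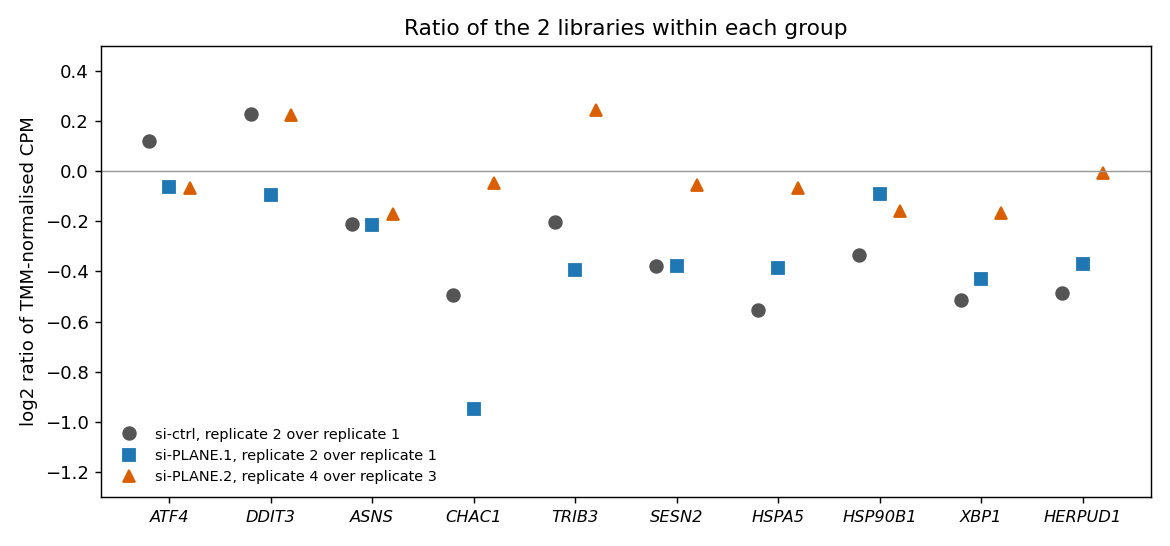
Log2 ratio (vertical axis) of the TMM-normalised CPM of the 2 libraries within each group for the 10 genes, replicate 2 over replicate 1 for si-ctrl and si-PLANE.1 and replicate 4 over replicate 3 for si-PLANE.2. HSPA5, XBP1 and HERPUD1 lay between -0.55 and -0.37 in si-ctrl and si-PLANE.1 and between -0.17 and -0.0091 in si-PLANE.2.

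The wider pathways were described with lists written by hand. For si-PLANE.1 no gene of any list passed by edgeR, and the unadjusted counts below stand against 10.4% of all genes. Among 25 stress sensors and eIF2 regulators only EIF2AK3, the sensor PERK, had an unadjusted p under 0.05 (log2 fold change 0.55, SE 0.21, adjusted p = 0.423). Of 32 ATF4 targets 3 had higher and 3 had lower values at an unadjusted p under 0.05, and the median lay close to 0. The smallest p were those of SHMT2 (-0.51), which makes one-carbon units from serine in mitochondria, ALDH1L2 (0.57), also of one-carbon metabolism, and GPT2 (0.86), an alanine aminotransferase, with adjusted p between 0.303 and 0.415. In 28 ER chaperones and folding enzymes the median was 0.065, and 2 genes had higher and 1 had lower values at an unadjusted p under 0.05. The median of 13 cytosolic heat shock genes was -0.35, with 13 of 13 below 0 and 8 at an unadjusted p under 0.05, against medians of -0.21 for the reference genes and -0.40 for the A549 markers. HSPE1 (-0.67), HSPH1 (-0.42) and HSP90AA1 (-0.57) had the smallest p among them, with adjusted p from 0.288 to 0.370.

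For si-PLANE.2, 7 of 25 sensors and regulators rose and 10 fell, with a median of -0.12. All counts of list genes in this comparison stand against 64.1% of all genes called and 31.8% called higher, so a list in which most genes were called is close to the general share. EIF2AK2 fell by 2.16 on the log2 scale (SE 0.40, adjusted p = 0.00219), PPP1R15B, which recruits the eIF2 phosphatase, fell by 1.37, ATF6 fell by 0.83 and ERN1, which encodes IRE1, fell by 0.64. On counts the subunits of eIF2B, the exchange factor that phosphorylated eIF2 blocks, all rose, from 0.30 for EIF2B2 to 1.06 for EIF2B5. EIF2B1 rose by 0.82 on counts, a larger difference than in FPKM. Its FPKM values were 28.3 and 30.6 with si-ctrl and 30.9 and 31.0 with si-PLANE.2. EIF2AK3 differed between the units, with 31.25 and 19.96 FPKM with si-ctrl against 8.66 and 9.30 FPKM with si-PLANE.2. Its log2 fold change of -0.26 on counts did not pass (SE 0.18, adjusted p = 0.227). EIF2S1, a subunit of eIF2, also differed between the units, with 34.3 and 21.5 FPKM with si-ctrl against 151 and 133 FPKM with si-PLANE.2. On counts its log2 fold change of 0.10 did not pass (SE 0.18, adjusted p = 0.635 by edgeR). PPP1R15A, the stress-induced partner of the same phosphatase and a target of ATF4, had 18.8 and 26.8 FPKM and then 22.1 and 25.1 FPKM (adjusted p = 0.187).

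Of 31 ATF4 targets tested for si-PLANE.2, 19 rose and 4 fell, with a median of 0.46, against 64.1% of all genes called in either direction and 31.8% called higher. The largest rises were those of NUPR1 (log2 fold change 2.77, SE 0.50), a stress-induced chromatin protein, SLC3A2 (2.33, SE 0.10), the heavy chain of amino acid exchangers, and ATF5 (2.30, SE 0.11), a relative of ATF4. KLHL24, a ubiquitin ligase adaptor, fell by 2.20, CTH, which makes cysteine, fell by 1.37 and ALDH1L2 fell by 1.12. TRIB3 thus lay among the larger rises of known ATF4 targets, while ATF4 mRNA did not pass the test. Of 12 aminoacyl-tRNA synthetases known as ATF4 targets 7 rose and 2 fell, with a median of 0.36, and of 8 synthetases outside that program 6 rose and none fell, with a median of 0.55. VARS1, counted among these 6, lies in a region with alternate haplotype copies, and its counts are uncertain. A lower mean FPKM with si-PLANE.2 was held by 1 of the 7 and by 1 of the 6. On counts MARS1 (1.09), which lies opposite DDIT3, AARS1 (0.99) and SARS1 (0.84) rose most among the first 12, and LARS1 fell by 0.77. In FPKM, MARS1 was at 69.5 and 56.4 with si-ctrl and at 70.5 and 73.3 with si-PLANE.2, a smaller difference than on counts.

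Of 28 ER chaperones and folding enzymes 13 rose and 4 fell for si-PLANE.2, with a median of 0.32, again against 64.1% of all genes called and 31.8% called higher. Of the 13, P4HB, named after its values were seen, had a lower FPKM with si-PLANE.2, at 1466 and 1320 in si-ctrl and 479 and 508 in si-PLANE.2. SDF2L1, a partner of ER chaperones, went from 10.0 and 6.19 FPKM to 74.5 and 68.5 FPKM (log2 fold change 3.38, SE 0.20, adjusted p = 1.45e-05). CRELD2 rose by 2.01 and FKBP2, a prolyl isomerase, by 1.91. ERO1A and ERO1B, the oxidases that drive disulfide formation, fell by 1.77 and 0.96, and the cargo receptor LMAN1 fell by 0.89. Of 24 degradation genes 11 rose and 7 fell (median 0.14), led by VCP (1.68), the ATPase that extracts substrates, and of 28 genes of translocation 12 rose and 5 fell (median 0.21), led by SEC11C (2.17), a signal peptidase subunit. Of 14 cytosolic heat shock genes 13 rose (median 0.92), among them HSPE1 (2.14) and HSPA1A (1.90), and 3 of the 13 had a lower mean FPKM. HSPA1A and HSPA1B are near-identical copies between which reads can be split, and HSPA1B was listed at 0 in all libraries other than those of si-PLANE.2. The medians of these lists other than the heat shock genes lay below that of the 15 reference genes, 0.77, of which 11 rose and 1 fell.

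The paralogues of the members did not all share their direction. SESN2 rose for si-PLANE.2 by 0.70 and SESN3 fell by 1.49. SESN1 was called higher on counts (0.60), but its FPKM values were 5.48 and 7.05 in si-ctrl and 5.62 and 5.20 in si-PLANE.2, so its direction depends on the unit. TRIB1 fell by 1.00 where TRIB3 rose, and TRIB2 was below the minimum level for that test. CHAC2 rose by 1.82 (SE 0.50, adjusted p = 0.014), from 3.43 and 0.85 FPKM to 7.34 and 5.64 FPKM, with replicate 2 of si-ctrl low as for CHAC1. HSP90AA1 rose by 0.76 and HSPA8 by 0.95, and HSP90AB1 (0.024) and HSPA9 (0.14) did not pass. ASNSD1 was called higher on counts (0.62), whereas its FPKM went from 33.7 and 33.5 to 18.6 and 18.2, so no direction is given for it. HERPUD2 fell by 0.54 where HERPUD1 rose.

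In the replicate comparison the ER lists had mostly lower values in replicate 2. Of 28 ER chaperones and folding enzymes 24 had log2 fold changes below 0 and 5 fell, with a median of -0.27, against 5.59% of all genes called and 2.92% called lower. DNAJB11 (-0.51) and DNAJC3 (-0.40), cochaperones of BiP, and PPIB (-0.37), a prolyl isomerase, had the smallest p. Of 24 degradation genes SELENOS alone fell (-0.52), and of 28 translocation genes SRP19 (-0.78) and SPCS2 (-0.43) fell. Of 32 ATF4 targets 4 rose and 5 fell, with DDIT4 (0.72), VEGFA (0.56) and GDF15 (0.65) higher in replicate 2. Among the sensors EIF2AK2 (-1.50), CREB3 (-0.47), EIF2S1 (-0.45) and EIF2AK3 (-0.41) fell and PPP1R15A (0.47), EIF2S3 (0.39) and ERN1 (0.37) rose.

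**Figure D5:**
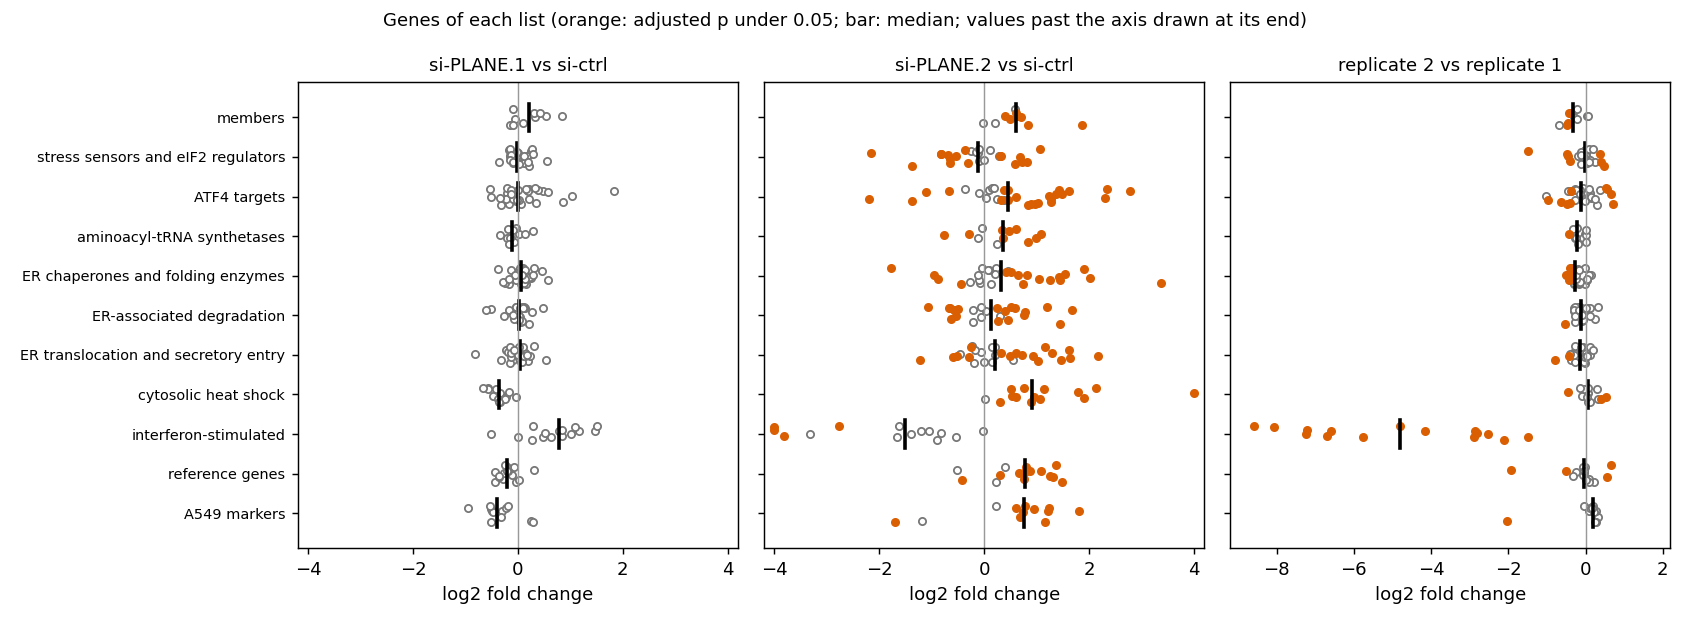
Log2 fold changes (horizontal axis, edgeR) of the genes of 11 lists for si-PLANE.1 against si-ctrl, si-PLANE.2 against si-ctrl and replicate 2 against replicate 1, with orange points for adjusted p under 0.05, a bar at each median and values past the axis drawn at its end. The 10 genes had medians of 0.21, 0.60 and -0.34, and the interferon-stimulated genes had a median of -4.79 in the replicate comparison.

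The genes most like a member in pattern were ranked by the root mean square difference of log2(FPKM + 1), centred over the 6 libraries, among 10183 genes with a mean of at least 5 FPKM. For HSPA5 the 5 nearest included PLPP5 (0.0443), CNPY2 (0.0490), EMC7 (0.0541) and SLC20A1 (0.0615). CNPY2 belongs to the ER folding list, whereas PLPP5, EMC7 and SLC20A1 are in none of the lists. EMC7 is a subunit of a complex that inserts proteins into the ER membrane. The likeness is in FPKM, and on counts CNPY2 rose for si-PLANE.2 by 1.44 on the log2 scale, against 0.60 for HSPA5. For ASNS, whose FPKM hardly varied although its scaled counts did, they were COQ10B (0.0400), PIGF (0.0457), PCNP (0.0482), PAFAH1B1 (0.0497) and ARL6IP1 (0.04996).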

How the data were processed

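RNA-seq libraries of A549 cells were analysed from 2 deposited tables, 1 per siRNA against PLANE, whose si-ctrl columns were identical and were used once. Per the file headers each table holds expected counts and FPKM per transcript. The deposited expected counts are estimates of reads per transcript made by the authors, and the tool that gives counts that are not whole is not given in the sources used here. The FPKM values were scaled by the authors to transcript length and library size. The submitters' processing notes list Trimmomatic 0.30, HISAT2 2.0.1, HTSeq 0.6.1, DESeq and hg19, with no role stated for each. Poly(A) isolation or rRNA removal is named without saying which library had which.

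Transcripts were summed to 34957 genes, of which 33692 matched a symbol. The 16723 transcripts without a gene identifier, 3.03% to 3.62% of counts, were left out. Depth was 10572151 to 20778431 expected counts per library, which limits the precision for genes with few counts. Genes with a mean of at least 0.5 FPKM in the libraries compared were tested on rounded expected counts with edgeR 4.0.16 (TMM scaling, quasi-likelihood F-test, Benjamini-Hochberg adjustment over all genes tested, threshold 0.05) in R 4.3.3. Each siRNA was fitted with si-ctrl alone, the siRNAs were compared in a fit of all 6 libraries, and replicate 2 was compared with replicate 1 over si-ctrl and si-PLANE.1 with the siRNA as a term. The siRNA comparisons share the si-ctrl libraries. Scripts were tested on simulated data. Alternatives were DESeq2 1.42.0, RLE scaling, no minimum or a minimum of 2 FPKM, limma 3.58.1 on log2(FPKM + 1), log2(FPKM + 0.1) and log2(TPM + 1) with TPM computed from FPKM, each gene's most abundant transcript in place of the sum, a block for the replicate number, other sets of libraries, and, added after seeing the data, protein-coding transcripts alone.

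The 10 genes and the lists were chosen with earlier results of these data known. All members, sensors and paralogues could be named. Of each other list, up to 3 genes with the largest change in each direction among those called were named for si-PLANE.2, and up to 3 with the smallest p for the other comparisons. Member transcripts were named where they held at least 10% of the gene's FPKM in any library, unless said otherwise. Transcript sequences are from GENCODE v44lift37 on GRCh37 and promoters from RefSeq on GRCh38.p14. PLANE was not analysed here, and 1 of the genes nearest to HSPA5 in pattern is not reported here.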

Additional observations from a re-analysis of the deposited data

Results flagged for a closer look

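The effects of the siRNAs on 4 of the 10 genes differed from each other by a direct test in the fit of all 6 libraries (edgeR, adjusted p under 0.05), against 64.4% of all genes called in that test. The difference of si-PLANE.2 minus si-PLANE.1 on the log2 scale was 1.54 for TRIB3, 0.60 for XBP1, 0.50 for ASNS and -0.55 for ATF4. For ASNS it was -0.056 with limma on log2(FPKM + 1), so its direction depends on the unit. The comparison holds the difference in histone mRNAs noted for si-PLANE.2. The siRNA and the way the library was made cannot be told apart in it.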

How the results depend on the processing

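Against si-ctrl, for si-PLANE.1, 134 of 150 alternative values of the 10 genes kept the direction reported, as did 136 of 140 in the si-PLANE.2 comparison, 151 of 160 between the siRNAs and 93 of 100 between the replicates. None of the reversals was of a called gene except ASNS, once for si-PLANE.2 against si-ctrl and 3 times between the siRNAs. The number of genes called for si-PLANE.1 was 0, with 1 by DESeq2 and 0 to 0 on leaving out 1 library. For si-PLANE.2 it was 7, with 2 and 1 by limma on log2(FPKM + 1) and log2(FPKM + 0.1), 1 by limma on log2(TPM + 1), 2 with the most abundant transcript, 4 with protein-coding transcripts only, and 2 to 8 on leaving out 1 library. Between the siRNAs it was 4, with 7 by DESeq2 and 2 to 7 on leaving out 1 library. Between the replicates it was 3, with 0 by each of the 3 limma fits, 0 with the most abundant transcript and 0 without the siRNA as a term. DESeq2 called 1 member transcript in the si-PLANE.1 comparison and 11 in that of si-PLANE.2. The cause of these differences was not tested.

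On the log2(TPM + 1) scale the median of all genes was 0.14 in the si-PLANE.1 comparison, -0.37 in that of si-PLANE.2, -0.54 between the siRNAs and -0.13 between the replicates, and on the log2(FPKM + 1) scale it was -0.22 for si-PLANE.2 and -0.33 between the siRNAs, against -0.027 and -0.062 on counts for these last 2. Reversed log2 values for si-PLANE.1 were those of ASNS (0.11 by both FPKM fits, 0.18 by TPM), HSP90B1 (0.050 and 0.050, 0.12 by TPM) and XBP1 (0.069 by TPM). For si-PLANE.2 they were ASNS (-0.10) and HSP90B1 (-0.042), both by TPM. Between the siRNAs they were ASNS (-0.056 and -0.058, -0.28 by TPM), HERPUD1 (-0.083 and -0.084, -0.31 by TPM) and, by TPM, SESN2 (-0.095), HSPA5 (-0.00102) and HSP90B1 (-0.17), and of called genes 48.2% were higher on counts against 21.4% by TPM. Between the replicates they were ATF4 (-0.022 and -0.022, -0.12 by TPM), DDIT3 (-0.090 by TPM, -0.34 with the most abundant transcript) and ASNS (0.018 and 0.018). On leaving out 1 library, values for si-PLANE.1 ran from -0.21 to 0.019 for ASNS, -0.69 to 0.24 for CHAC1, -0.15 to 0.41 for HSPA5, -0.22 to 0.12 for HSP90B1 and -0.34 to 0.19 for XBP1, and for si-PLANE.2 from -0.10 to 0.036 for ATF4.

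With the replicate block, 3 of the 10 genes were called for si-PLANE.1, ATF4 (log2 0.53, adjusted p = 0.000242), DDIT3 (0.85, adjusted p = 0.00939) and HERPUD1 (0.42, adjusted p = 0.0276), against 8.43% of all genes, and 0 transcripts. The deviations of same-numbered libraries had a correlation of 0.382 over 14535 genes, but there are 2 pairs and the labels do not say what the number marks, so the pairing is not established. No block could be made for si-PLANE.2, whose numbers are shared with no other group. With 2 libraries a group, genes with few counts such as CHAC1 and DDIT3 are the least precise.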
